A study of Mus musculus with 6 samples.

Results

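The genes described here encode the proteins of the cytosolic ribosome, and the measurement is where the transcription factor Runx1 was called on DNA around them. The set holds 81 of 21887 protein-coding genes of the RefSeq mouse annotation (build GRCm38.p6, the build the files call mm10). They were chosen by symbol: Rpl or Rps followed by a number, with an added a, x, y or l allowed, together with Rpsa, Rplp0, Rplp1 and Rplp2. By name, 50 belong to the large (60S) subunit and 31 to the small (40S) subunit. A Runx1 peak was assigned to a gene if any base of it fell within the gene or its flanking 1 kb. Under that rule the genes held 88 of 25052 peaks in the sham library, 97 of 56316 at D14 and 78 of 15009 at D56. A peak within reach of more than one member was counted once.

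Each ribosome joins a large and a small subunit, built from ribosomal RNA and one copy of most ribosomal proteins, so cells make these proteins in matched amounts. Their genes are short and highly transcribed, and their mRNAs typically begin with a run of pyrimidines (the terminal oligopyrimidine start) through which growth signals acting on mTOR set their translation. RUNX proteins bind the letters TGTGGT or TGCGGT together with their partner Cbfb. In mouse blood stem and progenitor cells, loss of Runx1 is known to lower ribosome biogenesis.

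The study profiled Runx1 by ChIP-seq (sequencing of immunoprecipitated chromatin) in GFP-positive lung fibroblasts. All groups carried Col1a2-CreERT2 and mTmG, a reporter that turns green in cells where the Col1a2-driven Cre has acted, so the cells are those in which Col1a2 regulatory sequence drove the recombinase. The groups were sham injury, day 14 (D14) and day 56 (D56) after bleomycin given into the trachea, with 1 Runx1 ChIP library and 1 input library each. The sources used here do not give the age, sex or number of mice. With 1 library per condition there was no replicate and no test between conditions, and intervals on shares are 95% Wilson intervals that cover counting error only. In a bulk library, binding in fewer cells and weaker binding per cell cannot be told apart. ChIP libraries held 48816721 to 78744701 tags and inputs 19949187 to 49312043. The D56 input was the smallest, and the weakest D56 peak had a pileup of 10. By the same rule, 53.6% (sham), 66.7% (D14) and 46.7% (D56) of all protein-coding genes had a peak. In sham, D14 and D56, peaks were called at 7, 7 and 5 of 8 fibroblast marker genes and at 4, 6 and 4 of 6 endothelial markers. Among 6 epithelial markers the numbers were 1, 2 and 0, and among 6 immune markers 2, 3 and 1. These are binding calls, not expression, and their part in the results below was not tested.

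The promoters below carry the main contrasts of the set. Rpl15 and Rpl37 had the highest D14 enrichments, Rps2 and Rps12 hold a RUNX motif beside strong peaks, Rps6 holds a CGCG-centred palindrome of 10 bases, Rpl6 holds a RUNX motif beside a weak peak, Rps4x was called at D14 alone, and Rpl10l had no peak. Each is the stretch of 250 bases before the annotated transcription start, 5′ to 3′ on the gene's strand, from RefSeq (GRCm38.p6). Capitals mark, on either strand, the RUNX motif in either form, CCGGAAG (the core of many ETS sites) and the 10-base palindrome, which stands in capitals in the Rps6 promoter.
Rpl15 (chr14:18270987-18271236, minus strand): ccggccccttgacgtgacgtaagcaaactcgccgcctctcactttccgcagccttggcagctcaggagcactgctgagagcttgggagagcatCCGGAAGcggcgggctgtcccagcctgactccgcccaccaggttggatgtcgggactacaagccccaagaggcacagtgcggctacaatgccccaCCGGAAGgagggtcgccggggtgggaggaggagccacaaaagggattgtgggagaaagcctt
Rpl37 (chr15:5116363-5116612, plus strand): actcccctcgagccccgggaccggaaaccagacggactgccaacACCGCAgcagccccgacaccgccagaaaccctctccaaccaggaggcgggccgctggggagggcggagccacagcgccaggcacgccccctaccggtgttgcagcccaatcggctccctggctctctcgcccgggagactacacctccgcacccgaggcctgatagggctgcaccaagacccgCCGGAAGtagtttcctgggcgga
Rps2 (chr17:24719813-24720062, plus strand): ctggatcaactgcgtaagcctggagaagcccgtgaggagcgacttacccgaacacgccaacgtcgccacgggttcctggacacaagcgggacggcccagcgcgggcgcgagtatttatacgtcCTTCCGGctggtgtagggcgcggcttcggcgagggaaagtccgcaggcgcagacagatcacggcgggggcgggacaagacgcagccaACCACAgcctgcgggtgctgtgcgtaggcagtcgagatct
Rps12 (chr10:23787210-23787459, minus strand): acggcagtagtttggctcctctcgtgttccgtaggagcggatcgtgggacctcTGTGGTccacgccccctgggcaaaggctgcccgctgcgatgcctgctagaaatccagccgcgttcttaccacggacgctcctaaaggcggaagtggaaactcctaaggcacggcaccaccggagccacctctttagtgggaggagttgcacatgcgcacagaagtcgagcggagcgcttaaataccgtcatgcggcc
Rps6 (chr4:86857368-86857617, minus strand): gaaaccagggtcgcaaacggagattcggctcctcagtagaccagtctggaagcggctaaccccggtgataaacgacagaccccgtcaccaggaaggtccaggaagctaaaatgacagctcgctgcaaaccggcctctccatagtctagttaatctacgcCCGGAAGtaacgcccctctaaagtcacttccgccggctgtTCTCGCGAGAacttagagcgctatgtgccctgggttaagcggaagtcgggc
Rpl6 (chr5:121204251-121204500, plus strand): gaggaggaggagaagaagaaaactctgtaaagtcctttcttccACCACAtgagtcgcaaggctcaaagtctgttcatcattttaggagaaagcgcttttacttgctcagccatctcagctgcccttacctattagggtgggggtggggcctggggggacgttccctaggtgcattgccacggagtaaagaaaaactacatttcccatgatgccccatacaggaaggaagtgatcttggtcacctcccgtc
Rps4x (chrX:102189392-102189641, minus strand): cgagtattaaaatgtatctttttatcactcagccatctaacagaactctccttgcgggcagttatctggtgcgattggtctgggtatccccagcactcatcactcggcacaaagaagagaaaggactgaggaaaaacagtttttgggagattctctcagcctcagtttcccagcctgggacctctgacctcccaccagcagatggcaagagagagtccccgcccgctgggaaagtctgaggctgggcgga
Rpl10l (chr12:66284402-66284651, minus strand): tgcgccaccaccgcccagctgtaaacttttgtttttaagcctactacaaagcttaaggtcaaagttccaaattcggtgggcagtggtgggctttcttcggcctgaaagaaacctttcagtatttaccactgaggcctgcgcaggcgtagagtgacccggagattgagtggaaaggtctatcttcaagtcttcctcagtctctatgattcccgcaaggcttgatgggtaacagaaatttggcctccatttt

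Nearly every ribosomal protein gene carried a Runx1 peak in sham fibroblasts and at D14. Of the 81 genes, 77 had a peak in sham, 78 at D14 and 72 at D56. Over all protein-coding genes the shares called by the same window were 53.6% in sham, 66.7% at D14 and 46.7% at D56, against 95.1%, 96.3% and 88.9% of the ribosomal protein genes. Longer genes offer more room for peaks, and ribosomal protein genes are short, with a median of 3.18 kb and a maximum of 11.8 kb, against a median of 17.3 kb for other genes. Among protein-coding genes no longer than the longest member, the shares called were 35.9%, 45.6% and 31.5%. Peaks in all 3 libraries were found at 72 of the 81 genes, beside 46.1% of all protein-coding genes.

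Both subunits took part. Of the 50 large-subunit genes, 47 had a peak in sham, 47 at D14 and 42 at D56. Of the 31 small-subunit genes, the numbers were 30, 31 and 30. One peak per gene was the usual pattern, seen at 66 (sham), 60 (D14) and 65 (D56) genes. As many as 3 peaks were called at Rpl36 in sham and at Rpl13a and Rpl4 at D14.

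**Figure D1:**
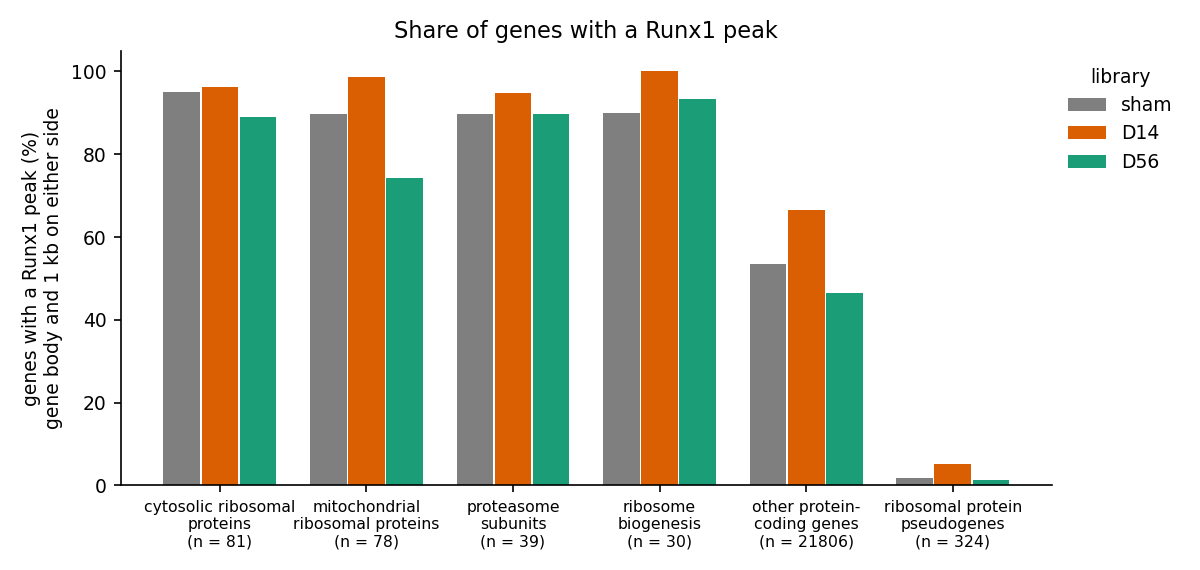
Share of genes (y axis, %) with a Runx1 peak in the gene or its flanking 1 kb, in sham, D14 and D56 libraries, for cytosolic ribosomal protein genes and 4 other sets of genes and for pseudogenes named after ribosomal protein genes. The cytosolic set stands at 95.1%, 96.3% and 88.9%, above other protein-coding genes in each library, and the pseudogenes stay at 5.25% or below.

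The 3 genes with no peak in any library were paralogs of other members. Rpl10l, a testis-expressed retrogene that stands in for X-linked Rpl10 during meiosis in mice, was one. Rpl39l, a testis-enriched relative of Rpl39, and Rpl32l were the others. Over all protein-coding genes, 33.2% had a peak in no library. Rpl3l, the skeletal and heart muscle relative of Rpl3, was called in all 3 libraries, with folds of 8.68, 18.9 and 12.7 in sham, D14 and D56. Its peak did not lie at its own start: at D14 the summit was 3884 bp downstream of the nearest Rpl3l start and 24 bp from an end of the neighbouring gene Msrb1. Rps27l, a p53-responsive relative of Rps27, had its peak 64 bp upstream of an annotated start at D14, with a fold of 14.1.

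The highest fold per gene was near that of other bound genes. Fold enrichment is the authors' ratio of the ChIP signal at the summit to the local background, made for each library apart and not on a common scale across libraries. In sham, the highest fold of each ribosomal protein gene ran from 2.32 to 14.0 with a median of 6.43, and other protein-coding genes with a peak had a median of 6.77. At D14 the range was 5.75 to 35.1 with a median of 13.97, beside 13.4 for the others. At D56 it was 3.70 to 19.3 with a median of 8.67, beside 8.36. Other genes are longer and can hold more peaks from which the highest is taken, and this was not adjusted for. Over all single peaks, at genes or elsewhere, the median fold was 5.07 in sham, 5.68 at D14 and 6.78 at D56. Ranked among all 21887 protein-coding genes by highest fold, with genes lacking a peak placed lowest, the 81 genes had a median percentile of 68.3 in sham, 67.7 at D14 and 73.0 at D56. At or above percentile 95 were 4 (sham), 3 (D14) and 2 (D56) of the 81 genes, at or below the share this percentile sets for all genes. At or above percentile 90 were 10, 9 and 12, slightly more than that percentile sets.

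**Figure D2:**
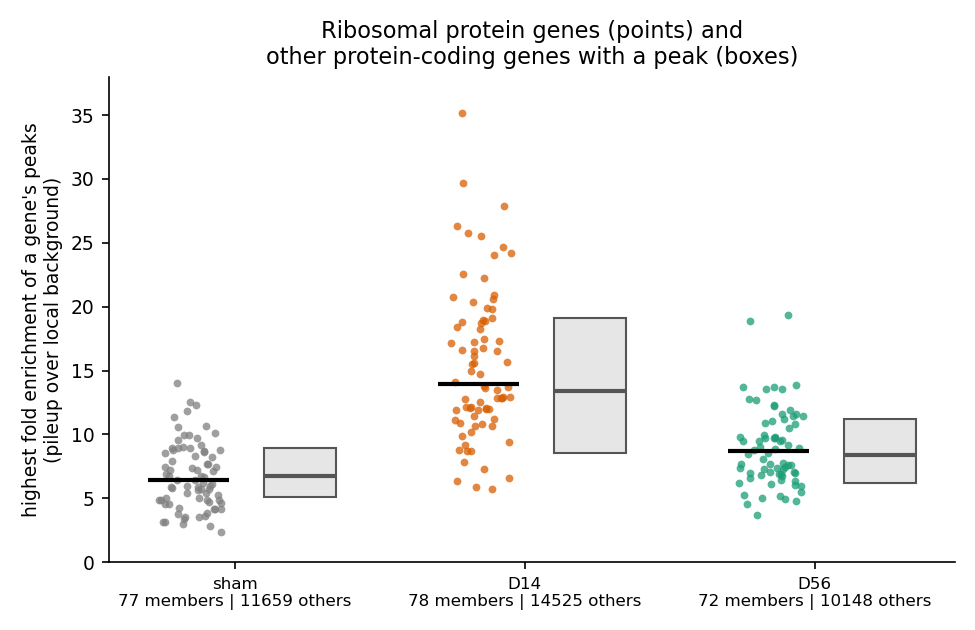
Highest fold enrichment of a gene's peaks (y axis, ratio of pileup to local background) for ribosomal protein genes with a peak (points, black line at the median) and for other protein-coding genes with a peak (boxes from the 25th to the 75th percentile, line at the median), by library. Medians of points and boxes lie close together in each library, at 13.97 and 13.4 at D14, and scales differ between libraries.

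Rpl15, a large-subunit protein, had the highest D14 fold of the set, at 35.1 (percentile 98.9), with 8.57 in sham and 13.9 at D56. The D14 peak spanned chr14:18270531-18271492 with a pileup of 233 (110 in sham, 48 at D56), and its summit lay 178 bp upstream of the Rpl15 start and 28 bp from an end of Nkiras1, so the peak cannot be given to either gene alone. Rpl37 followed with 11.4 in sham, 29.7 at D14 and 11.4 at D56, also beside a neighbour, Card6, whose gene end was 87 bp from the D14 summit. Rpl31 had 5.94, 27.9 and 12.8 and no such neighbour, its D14 summit lying 37 bp upstream of its start. Rps2, which lines the mRNA entry channel, had 12.3, 26.3 and 12.2 in sham, D14 and D56. Next at D14 were Rps9 with a fold of 25.8, Rpl27a with 25.5, Rpl22 with 24.7, Rpl34 with 24.2, Rps28 with 24.0 and Rps10 with 22.5. Rps9 was at percentile 94.0 at D14 and at percentile 55.4 in sham, with a sham fold of 4.51.

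The order of the genes differed between libraries. Rps21 led in sham with a fold of 14.0 (percentile 98.6) and had 19.8 at D14 (percentile 85.1) and 9.54 at D56 (percentile 82.2). Rps12 led at D56, with folds of 9.55 in sham (percentile 89.3), 18.4 at D14 (percentile 81.7) and 19.3 at D56 (percentile 99.3). Rpl34 came next at D56, with 6.71 in sham (percentile 72.9), 24.2 at D14 (percentile 92.2) and 18.8 at D56 (percentile 99.1). Rpl22, which is needed for T cell development in mice, had 12.5 in sham (percentile 97.1), 24.7 at D14 and 7.35 at D56 (percentile 71.5). No gene was among the 10 highest folds in all 3 libraries. Rpl22, Rpl27a, Rpl37, Rps2 and Rps28 were among the 10 highest at D14 and in sham, while Rpl15, Rpl31 and Rpl34 were among them at D56 and D14. Across genes, Spearman's rho of the highest folds was 0.50 between D14 and sham (77 genes with a peak in both), 0.60 between D56 and D14 (72 genes) and 0.35 between D56 and sham (72 genes). Over other protein-coding genes the values were 0.58, 0.59 and 0.54. These describe genes within single libraries of unequal depth; the genes share library, input and depth and are not replicates.

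**Figure D3:**
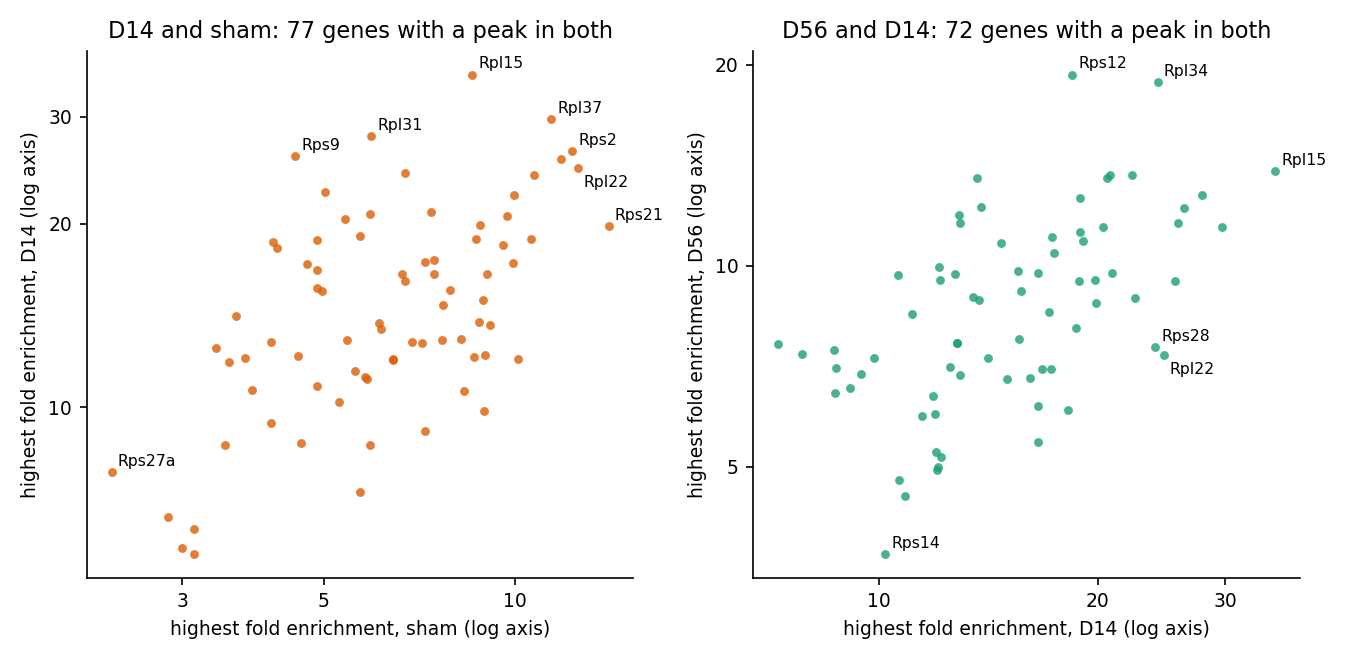
Highest fold enrichment of each ribosomal protein gene at D14 against sham (left) and at D56 against D14 (right), 1 point per gene with a peak in both libraries, on log axes. Rpl15 is highest at D14, Rps21 highest in sham and Rps12 highest at D56, and Rps27a is lowest in sham.

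Members with known roles beyond the core of the ribosome spanned much of the range of folds. The stalk proteins Rplp0, Rplp1 and Rplp2, which recruit translation factors, had folds of 10.6, 5.44 and 5.86 in sham, 18.9, 12.9 and 11.1 at D14 and 11.2, 6.87 and 8.46 at D56. Rpl5 and Rpl11, which bind 5S ribosomal RNA and restrain Mdm2, had 18.2 and 8.69 at D14. Their folds were 4.22 and 3.50 in sham and 6.07 and 6.44 at D56. Rps6, the substrate of S6 kinase, had 8.23 in sham, 12.9 at D14 and 11.6 at D56. Rps19, whose human counterpart is mutated in Diamond-Blackfan anaemia, had 9.95, 22.3 and 13.7. Rpsa, a small-subunit protein also described as a laminin receptor, had 8.80, 19.9 and 8.80. Rps27a, made as a fusion with ubiquitin, had the lowest sham fold of the set at 2.32, with 7.83 at D14 and 7.39 at D56, and its highest-fold summit lay nearer to an end of Clhc1 in each library.

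Peaks sat at gene starts. A strand and start were available for 61 of the 81 genes. The summit of the highest-fold peak lay a median of 52 bp upstream of the nearest start in sham (57 genes), 46 bp at D14 (58 genes) and 44 bp at D56 (54 genes). It was upstream of the start at 43, 46 and 45 of these genes. Within 150 bp of the start were 49, 47 and 45 of them. Counting any summit within 250 bp, 53 of 61 genes were called in sham, 53 at D14 and 49 at D56, beside 42.5%, 51.3% and 38% of the 17492 protein-coding genes with a start. Of the 20 members with a peak and no start in the table, 16 had their highest-fold summit within 250 bp of a gene end in sham and 16 at D14. Summits held their place: highest-fold summits lay a median of 19 bp apart between D14 and sham, within 100 bp for 73 of 77 genes, and a median of 22 bp apart between D56 and D14. Matching distances for other genes were not computed, so this is not read as particular to the set.

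**Figure D4:**
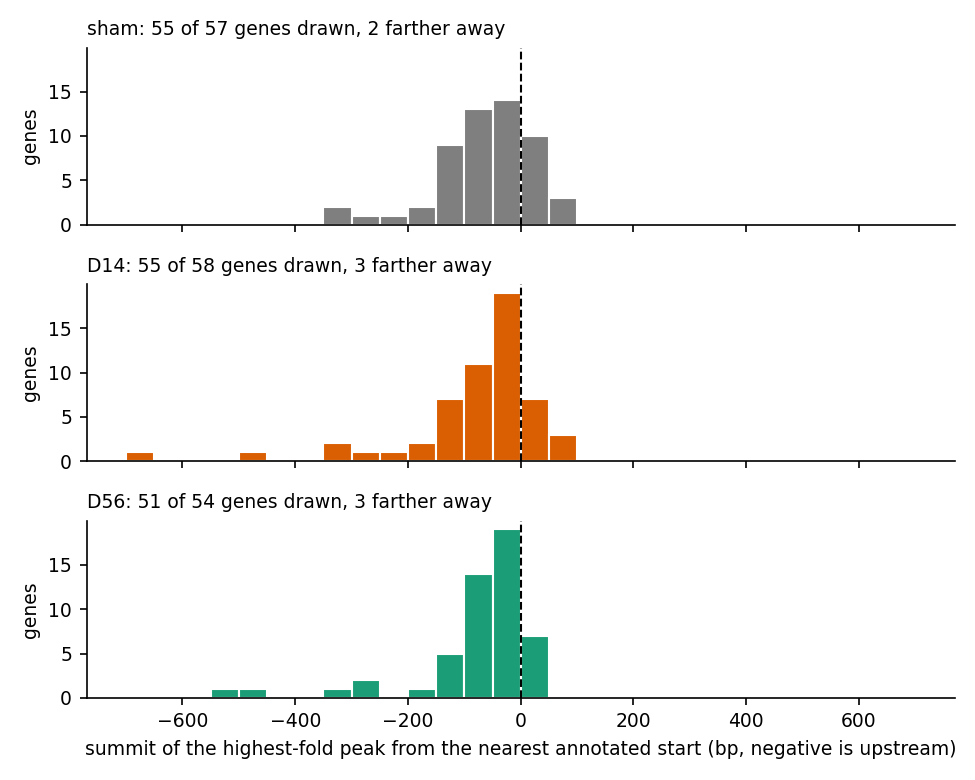
Position of the summit of the highest-fold peak relative to the nearest annotated start (x axis, bp, negative is upstream, dashed line at the start) for ribosomal protein genes with an annotated start, as numbers of genes (y axis) in each library. Most summits lie just upstream of the start, with medians of 52 bp (sham), 46 bp (D14) and 44 bp (D56) upstream, and 2, 3 and 3 genes lie beyond the axis.

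Neighbouring genes share some of this signal. The highest-fold summit was nearer to an end of another protein-coding gene at 10 members in sham, 12 at D14 and 12 at D56. This held in every library for 8 of them: Rpl15, Rpl36, Rpl37, Rpl3l, Rpl9, Rps18, Rps25 and Rps27a. With all such peaks left out, a step added after the values were seen, 68 genes kept a peak in sham, 71 at D14 and 63 at D56. Neither step was run over other protein-coding genes, so neither set of counts is read as particular to ribosomal protein genes.

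Most D14 peaks at ribosomal protein genes had a sham counterpart. Of the 97 D14 peaks, 85 overlapped a sham peak (by at least 1 bp; 87.6%, 79.6 to 92.8), beside 41.1% of all 56316 D14 peaks. The share depends on the threshold and list length. Without a sham overlap were 12.4% of member peaks and 58.9% of all D14 peaks, against 37.9% and 64.3% at a fold of 5 or more, and 6.49% and 25.2% with each list cut to its 15009 strongest peaks by p. With summits within 250 bp of a start, 52 of 54 member peaks met one (96.3%, 87.5 to 99.0), against 79.2% of 8808 peaks at other starts (78.3 to 80.0). The 12 that overlapped no sham peak were weak, with folds of 3.10 to 10.8 and a median of 4.23, against a median of 13.6 for the 85 with one. Most lay off the start, with 9 summits over 250 bp from the gene's own start or, where none was annotated, its ends. They belonged to 12 genes, and 11 of these had a sham peak elsewhere in the window. Rps4x was the exception, and the one ribosomal protein gene with a peak at D14 and none in sham, beside 13.2% of all protein-coding genes.

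Rps4x, the X-linked gene of a small-subunit protein, had a D14 peak at chrX:102189137-102189524 with a fold of 10.8, a pileup of 47 and a summit 34 bp downstream of its start. It was not called in sham or at D56, so its level there is known only to lie below the calling threshold. Its promoter, printed above, holds none of the capitalised motifs. The other X-linked members, Rpl10, Rpl36a and Rpl39, had peaks in all 3 libraries, with folds of 7.89, 8.96 and 5.61 in sham, 15.6, 12.2 and 11.5 at D14 and 7.78, 5.17 and 5.96 at D56. The strongest of the 12 peaks after that of Rps4x were downstream of Rps18 (8.31, 310 bp from an end of B3galt4) and at Rpl7 (7.90). The Rpl7 summit lay at a boundary of the gene, whose strand and start were not available. The next were at Rps10 (5.67), Rps19 (4.98), Rps15a (4.35), Rpl4 (4.12), Rpl10 (4.09), Rpl15 (3.99) and Rps27l (3.73), each of which had a stronger peak elsewhere that met a sham peak. Of the 88 sham peaks, 85 met a D14 peak, beside 91.7% of all sham peaks. The other 3 were at Rpl13, Rpl3 and Rpl36, with folds of 4.62, 4.74 and 3.62, and each of these genes had another peak at D14.

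At D56 the set kept most of its D14 peaks. All 78 D56 peaks met a sham peak and a D14 peak, near the 96.4% and 99.4% of all D56 peaks. Of the 97 D14 peaks, 77 met a D56 peak (79.4%, 70.3 to 86.2), beside 25.6% of all D14 peaks. Among the 15009 strongest peaks of each library by p the shares were 97.4% of member peaks and 76.9% of all, and with a reciprocal overlap of 50% they were 50.5% and 16.0%. At starts the shares were 49 of 54 member peaks (90.7%, 80.1 to 96.0) against 69.0% of peaks at other starts (68.0 to 70.0). None of the 12 peaks seen at D14 and not in sham met a D56 peak. The matching share over all D14 peaks was not computed. Over all peaks, 539 of 15009 at D56 and 33172 of 56316 at D14 met no sham peak. The absence is therefore not read as particular to the set. Among D14 peaks, the median fold was 5.33 for the 20 with no D56 counterpart and 14.7 for the 77 with one. In all, 6 genes with a D14 peak had none at D56, beside 20% of all protein-coding genes.

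These 6 genes included the most weakly enriched members. Rpl32, Rpl23a, Rpl35a and Rpl6 had the 4 lowest D14 folds of the set, at 5.75, 5.88, 6.31 and 6.60, and sham folds of 3.13, 2.99, 3.13 and 2.85. The lowest D14 fold of a gene still called at D56 was 7.27, at Rps25. Rps4x, with its D14 fold of 10.8, was the fifth. Rpl4, whose protein lines the exit tunnel, was the last, and had 3 peaks at D14 and 2 in sham. Its strongest D14 peak (fold 11.2, chr9:64172709-64173062) had its summit 197 bp from an end of Zwilch, the one at its far end (4.12) 13 bp from an end of Snapc5, and the peak at its own start, 61 bp downstream of it, had a fold of 2.86 at D14 and 5.81 in sham. Whether these genes were unbound at D56 cannot be read from a shorter list. Among the 15009 strongest peaks by p of each library, which is the length of the D56 list, 70 ribosomal protein genes had a peak in sham, 74 at D14 and 72 at D56. Over all protein-coding genes the shares under this cut were 45.3%, 49.7% and 46.7%.

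A RUNX motif was found in a minority of these promoters, as it was in those of other genes. Motifs were searched on both strands of the window from 250 bases before to 50 after each annotated start, and a gene counted once if any of its starts had a match. TGTGGT or TGCGGT was found at 9 of 61 ribosomal protein genes (14.8%, 7.96 to 25.7), against 24.4% of 17431 other protein-coding genes (23.8 to 25.1), with 5 genes holding TGTGGT and 4 TGCGGT. Of all protein-coding genes with a promoter sequence, 24.4% held either form. Among the other genes, the share was 24.1% where a D14 peak met the window and 24.8% where none did. The interval of the ribosomal protein genes holds all of these shares, so no direction can be read from it. The forms differed in this: TGTGGT was at 14.0% with a D14 peak and 21.3% without, and TGCGGT at 11.7% with one and 4.48% without. Among ribosomal protein genes TGTGGT was at 8.20% and TGCGGT at 6.56%. The 9 genes were Rpl18, Rpl27a, Rpl37, Rpl6, Rpl7a, Rps12, Rps2, Rps25 and Rps28. Their median highest fold was 9.91 in sham, 19.1 at D14 and 10.2 at D56, against 6.43, 14.1 and 8.67 for the 52 genes without a match, with overlapping ranges of 6.60 to 29.7 and 6.31 to 35.1 at D14. The highest fold is taken over all peaks of a gene, so it need not belong to the peak nearest the motif. At Rpl18 the sham value of 9.91 came from a summit 2729 bp upstream of the start. The Rpl18 peak with its summit 47 bp upstream had a sham fold of 5.15. In Rps2 the motif began 40 bp upstream of the start and its middle was 53, 12 and 27 bp from the nearest summit in sham, D14 and D56. At D14 the nearest match lay 23 bp away for Rpl18, 28 bp for Rps28, 62 bp for Rpl7a and 65 bp for both Rps12 and Rpl37. It lay 121 bp away for Rpl27a, 208 bp for Rpl6, whose peak was among the weakest, and 674 bp for Rps25. Rpl15, with the highest fold at D14, and Rps21, with the highest in sham, have no match in their windows, while Rps12, with the highest at D56, has one. A match is a description of letters, not a site, and its absence says only that these letters are not in the window.

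Other promoter features were more common in the set. CCGGAAG was found at 25 of 61 genes (41.0%, 29.5 to 53.5), against 12.9% of other genes (12.4 to 13.4), and at 12.9% of all genes. Among other genes with a D14 peak over the window the share was 20.7%. Rpl15 holds it at 2 places before its start, as printed above. The CGCG-centred palindrome, spelled out in the Rps6 promoter above, was found at 6 genes, Rpl10a, Rpl12, Rpl26, Rps19, Rps28 and Rps6 (9.84%, 4.59 to 19.8), against 0.723% of other genes, 1.16% of other genes with a D14 peak over the window and 0.755% of all. In Rps6 its middle was 19 bp from the sham summit, 21 bp from the D14 summit and 28 bp from the D56 summit, and in Rpl10a 19, 17 and 14 bp. It was 22, 21 and 15 bp away in Rps28, 120, 24 and 19 bp in Rpl12, 72, 76 and 21 bp in Rpl26 and 191, 142 and 484 bp in Rps19. In Rps28 it shares 1 base with the TGCGGT match. A C followed by 4 pyrimidines at the annotated start was found at 14 genes (23.0%, 14.2 to 34.9), against 2.60% of other genes and 2.67% of all. It was sought at the annotated base only, so a run beginning some bases away was not counted. How often that occurs was not tested. Rpl39l, without a peak, also holds CCGGAAG. Genes with CCGGAAG and a peak had median highest folds of 6.43 (sham), 14.6 (D14) and 8.96 (D56), against 7.22, 16.1 and 8.54 for genes without it. These folds too are taken over all peaks of a gene, not the peak nearest the motif.

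The remaining motifs were AAGATGGC (YY1) at 8.20% of ribosomal protein genes, against 3.55% of other genes, GGGCGG (SP factors) at 59.0% against 49.2%, and CCAAT (NFY) at 31.1% against 42.4%. CACGTG (E-box) was at 9.84% against 8.91%, TGANTCA (AP-1) at 3.28% against 8.13% and TATAAA at 11.5% against 14.8%. Over all protein-coding genes these shares were 3.57%, 49.2%, 42.3%, 8.91%, 8.12% and 14.8%. Among other genes with a D14 peak over the window they were 5.31%, 73.7%, 43.9%, 12.2%, 5.85% and 8.15%. Set against those bound genes, the ribosomal share turned from higher to lower for GGGCGG (interval 46.5 to 70.5) and CACGTG (4.59 to 19.8). It turned from lower to higher for TATAAA (5.67 to 21.8). The CACGTG and TATAAA intervals, from 6 and 7 of 61 genes, hold both comparison shares, so no direction can be read from them. The GGGCGG interval holds the 49.2% of other genes and lies below the 73.7%. For the NFY, AP-1 and YY1 motifs the direction was the same against both. The NFY share was lower, and its interval (20.9 to 43.6) holds the 42.4% of other genes and lies below the 43.9%. The AP-1 interval (0.904 to 11.2), from 2 of 61 genes, holds both comparison shares, so no direction can be read from it. The YY1 interval (3.55 to 17.8) holds the 5.31% of bound genes and begins at about the 3.55% of other genes. The median GC content of the windows was 56.7% for the ribosomal protein genes, 56.3% for other genes and 61.7% for other genes with a D14 peak over the window.

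**Figure D5:**
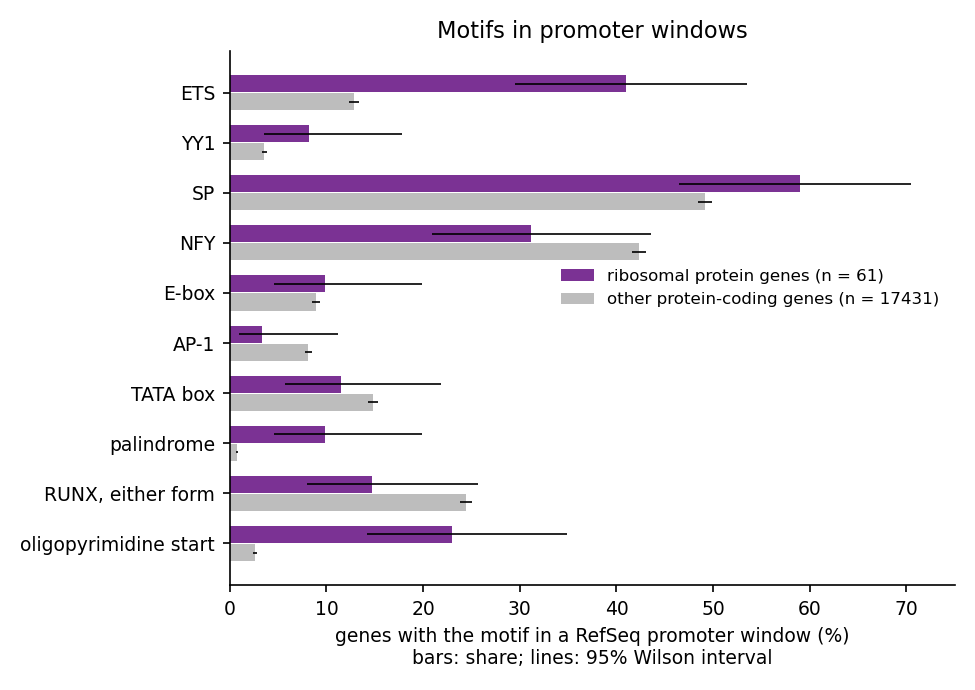
Share of genes with each motif in a RefSeq promoter window (x axis, %) for 61 ribosomal protein genes and 17431 other protein-coding genes, with 95% Wilson intervals as lines. The ETS motif (41.0% against 12.9%), the palindrome (9.84% against 0.723%) and the oligopyrimidine start (23.0% against 2.60%) are more common in the ribosomal set. The RUNX motif is found at 14.8% against 24.4%, and the ribosomal interval holds the share of other genes.

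Peaks were also called at most genes of related lists, so a high share called was not particular to the cytosolic set. The cytosolic shares were 95.1% (sham), 96.3% (D14) and 88.9% (D56), beside 53.6%, 66.7% and 46.7% of all protein-coding genes. For mitochondrial ribosomal protein genes they were 89.7%, 98.7% and 74.4%, and for proteasome subunit genes 89.7%, 94.9% and 89.7%. Mitochondrial ribosomal protein genes, which serve the separate ribosome of mitochondria, had a peak at 70 (sham), 77 (D14) and 58 (D56) of 78 genes, with a median percentile of 62.7 at D14. Proteasome subunit genes, which act in protein breakdown, had peaks at 35, 37 and 35 of 39. Initiation and elongation factor genes had them at 24, 24 and 23 of 24, with the highest D14 folds at Eif4g1 (34.7), the scaffold of the cap-binding complex, Eif3h (28.8) and Eif4g2 (27.0). Other mRNAs with a terminal oligopyrimidine start had them at 20 of 20 genes in each library, with a median percentile of 80.2 at D14, with high D14 folds at Eif3h and at Npm1, nucleophosmin (26.3). Ribosome biogenesis genes had them at 27, 30 and 28 of 30, led by Fbl, the rRNA methyltransferase fibrillarin (42.2), Polr1d, a polymerase I and III subunit (33.3), and Ncl, nucleolin (33.1). Genes that control ribosomal protein synthesis had them at 15, 16 and 14 of 16, led by Rheb, the mTOR activator (27.9), Mtor (26.2) and Larp1, which binds oligopyrimidine mRNAs (21.0). The lists of factors and of oligopyrimidine mRNAs share members.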

How the data were processed

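Runx1 ChIP-seq peaks of 3 libraries (sham, D14, D56) were analysed, and the 3 inputs entered through the peak calls. Per the file headers, the authors ran MACS 2.0.10.20120913 on every ChIP library with the matching input as control (q-value cutoff 0.01, local background over 1 kb and 10 kb, larger data set scaled down). BWA, SAMtools and MACS2 with mm10 are named in the submitters' processing notes. Each deposited list gives the pileup signal at the summit, −log10 p-value and q-value, and fold enrichment (a ratio), made by the authors per library. Nothing was pooled.

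Only peaks on the autosomes, X and Y were used (7 sham and 15 D14 peaks elsewhere were not). Genes, starts and promoter sequences came from RefSeq tables of GRCm38.p6; 61 of 81 members had a promoter entry. Positions are 1-based. Overlap meant 1 bp or more. Rpl36al, Rps3a1, Rpl22l1, Rpl7l1, Rps27rt, Fau and Rack1, among others, fall outside the symbol rule.

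Named genes were the members without a peak in a library, the 10 highest D14 folds, those with 3 or more peaks, those with a D14 peak lacking sham and D56 overlap, X-linked members, restricted paralogs and 9 members of known role; others, such as Rps12 and Rps21, were chosen after their values were seen. The members and lists were chosen with earlier results of these data known. Shares have 95% Wilson intervals. Interval steps were tested on simulated data. Python 3.11.15, pandas 2.3.3 and scipy 1.17.1 were used.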

Additional observations from a re-analysis of the deposited data

How the results depend on the processing

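The number of ribosomal protein genes with a peak (77 in sham, 78 at D14 and 72 at D56) lay between 53 and 77 in sham, 70 and 78 at D14 and 63 and 74 at D56 over 8 of 9 alternatives, and was 83, 84 and 78 of 88 with genes just outside the rule added. The lowest sham value, 53, came with a fold of 5 or more, which in sham cuts into the members' range. Where computed, the share of all protein-coding genes with a peak ran from 40.8% to 60.3% in sham. At D14 it ran from 49.4% to 73.3% and at D56 from 41.2% to 53.7%. The share of D14 member peaks without a sham overlap (12.4%) was 20.6% with a reciprocal overlap of 50%, 37.9% with a fold of 5 or more in both lists, 6.49% among the 15009 strongest peaks by p, 6.90% with peaks under 500 bp apart merged and 4.88% over the gene body alone. Over all D14 peaks it was 67.2%, 64.3%, 25.2% and 57.5% under the first 4 of these, so the members' share stayed below it. The share of D14 member peaks with a D56 overlap (79.4%) was 50.5% with reciprocal overlap, 97.4% and 97.2% among the 15009 strongest by p and by fold, 87.4% with merging and 89.0% over the gene body alone, against 16.0%, 76.9%, 72.7% and 27.8% of all D14 peaks under the first 4. The remaining 4 alternatives of each share stayed inside its interval. The gene body alone leaves out peaks beyond the ends by construction; the cause of the other shifts was not tested. Depth limits the absences: a gene without a D56 peak is one not called against the smallest input. No paired analysis was possible because each condition has 1 library.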

Other observations

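Genes that encode or resemble ribosomal proteins but fall outside the symbol rule were examined in the same way. Of these, Fau, Rack1, Rpl36al, Rpl22l1 and Rpl7l1 had a peak in every library, and Rps27rt had none. Rpl22l1, the paralog of Rpl22, had folds of 11.5 (sham), 24.8 (D14) and 11.6 (D56), and Fau, made as a fusion of a ubiquitin-like protein and a small-subunit protein, had 6.17, 18.1 and 10.9. Rps3a1, looked up after the values of the set were seen, had 7.05, 23.3 and 8.09.

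Ribosomal protein genes have many processed pseudogene copies, which carry the exons but not the promoter. Of 324 annotated pseudogenes named after a ribosomal protein gene, 6 had a peak by the same window in sham (1.85%), 17 at D14 (5.25%) and 4 at D56 (1.23%). Other annotated pseudogenes had peaks at 2.06%, 4.81% and 1.36% of 10105. Over the gene body alone the ribosomal pseudogenes had peaks at 2, 4 and 1 of 324, against 75, 77 and 70 of the 81 genes. The sources used here do not say how reads that match several copies were placed, and its part in these counts was not tested.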
